A study of Sus scrofa with 12 samples.

Results

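Proteasome genes were taken as every gene whose pig symbol begins with PSMA, PSMB, PSMC, PSMD, PSME, PSMF or PSMG. The rule found 46 genes among the 31908 identifiers of each library. Of these, 44 encode subunits, regulators or assembly factors of the proteasome, and PSMC3IP and PSME3IP1 share only the start of the name. PSMA6, PSMB5, PSMB6 and PSMG1 had no matched identifier and were not analysed here. The libraries were made by SMART-Seq2, a method that copies RNA from its poly(A) tail, from denuded oocytes of prepubertal gilts collected after 0h, 22h or 46h of in vitro maturation. Each stage had 4 libraries of 20 pooled oocytes, so every value is an average over a pool. All the oocytes came from slaughterhouse ovaries and were stripped of their cumulus cells before lysis. Those of 22h and 46h had been cultured inside these cells, in medium with follicular fluid, epidermal growth factor, PMSG and HCG. Those of 0h had not been cultured, so the stages differ in hours of culture and in time in this medium. The labels give no source animal or day for a replicate, so p-values measure the spread between these libraries.

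The proteasome is the protease that destroys proteins marked with ubiquitin. Its core particle is a stack of rings, with alpha subunits (PSMA) at the gates and beta subunits (PSMB) that carry the cutting sites. A regulatory particle caps the core: the ATPases of its base (PSMC) unfold the substrate, and its lid removes ubiquitin. PSMD genes encode the lid, other subunits of the base and some assembly factors. Other activators (PSME) can take the place of the particle. In oocytes the loss of cyclin B and securin through the proteasome lets meiosis pass from metaphase to anaphase.

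The values were FPKM, fragments per kilobase of transcript and per 1000000 fragments. Levels of different genes can be compared only as far as their gene models hold, which was not examined. Each value is also a share of a library. Less RNA of a gene per oocyte and more RNA of other genes therefore cannot be told apart. Because copying started at the poly(A) tail, a change in the tail of an RNA cannot be told apart from a change in its amount. Rises and falls below are of FPKM. The step between low values put the depth of the libraries at about 5580000 to 8220000 fragments, at which 1 fragment of a 1 kb transcript was worth about 0.122 to 0.179 FPKM. Mitochondrially encoded genes took between 1.79 and 3.77% of the FPKM at 0h, between 8.06 and 12.02% at 22h and between 12.8 and 16.7% at 46h. Replicate 4 of 0h stood apart from the others of its stage, with correlations of 0.934 to 0.970 to them across genes. The 9 oocyte markers matched were all expressed at 0h, among them ZP2, ZP3, ZP4, GDF9 and BMP15, and their summed level lay between 11931 and 17934 FPKM at 0h, between 15342 and 22602 at 22h and between 3899 and 7331 at 46h. Of 15 cumulus and granulosa markers, 3 (VCAN, FST and STAR) had a mean of at least 1 FPKM, while NR5A1, LHCGR and INHA were at 0 in all 12 libraries and FSHR reached 0.14 FPKM. Their sum, mostly VCAN, lay between 47.0 and 89.4 FPKM at 0h, between 56.5 and 86.8 at 22h and between 118 and 144 at 46h. The part of this rise in the differences at 46h was not tested. Of 6 immune markers, CD14 and CD68 were at 0 throughout and the sum was 3.16 to 9.6 FPKM. Most of this sum was LYZ, present in all 12 libraries with values between 2.51 and 6.49 FPKM. CD3E had at least 1.05 FPKM in each library made before culture. Its highest value, 2.96 FPKM, was in replicate 3 of 22h, and no 46h library exceeded 0.19 FPKM. PTPRC and CSF1R stayed at or under 0.19 FPKM.

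Each pair of stages was compared with limma on log2(FPKM + 1) over the 7013 genes whose mean reached 1 FPKM, and a gene passed at an adjusted p under 0.05 and a fold change over 1.5. Of the 46 proteasome genes, 39 were tested and 7 lay under the filter. From 0h to 22h, 4 of the 39 were higher, against 7.84% of all genes tested, and 15 were lower, against 18.9%. From 22h to 46h, 4 were higher, against 9.87% of all genes, and 17 were lower, against 32.6%. Between 0h and 46h, 7 were higher, against 16.8% of all genes, and 24 were lower, against 39.1%. In shares, 17.95% of the proteasome genes were higher and 61.54% lower over the whole culture. Their median log2 difference was -0.24 from 0h to 22h, -0.59 from 22h to 46h and -1.27 from 0h to 46h, where the medians of all genes were -0.00, -0.26 and -0.25. The 4 libraries of 46h lay wholly below the 4 of 0h for 25 proteasome genes, against 39.2% of all genes, and wholly above for 6, against 18.2%. For 22h against 0h the stages did not overlap for 13 genes below (18.6% of all genes) and 3 above (10.3%), and for 46h against 22h for 19 below (35.4%) and 6 above (13.2%). The 3 comparisons share libraries and are not independent of each other. PSME2 and PSMF1 reached the filter through their high 0h libraries alone, so their differences from 0h are given without a test, and without them 13 genes were lower at 22h and 22 at 46h than at 0h.

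**Figure D1:**
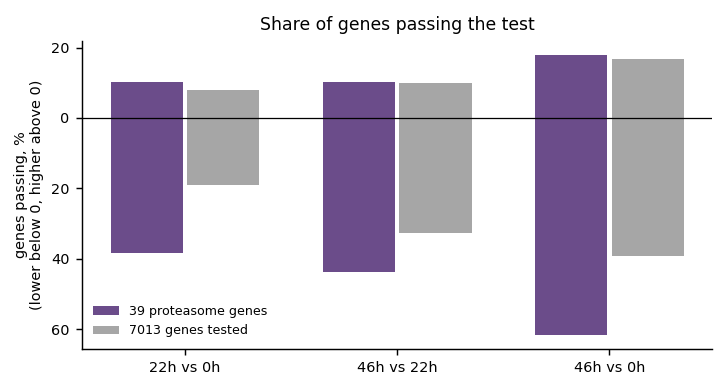
Percent of genes that passed the test in each comparison, with higher genes above 0 and lower genes below 0, for the 39 proteasome genes and the 7013 genes tested. The lower share of the proteasome genes at 46h against 0h was 61.54%, beside 39.1% of all genes, while the higher shares were 17.95% and 16.8%.

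The split between rises and falls moved with the scaling. Quantile normalization, which shifted the median of all genes at 46h against 0h from -0.25 to 0.37, gave 12 higher and 21 lower proteasome genes in that comparison, against 41% and 25.5% of all genes, and 8 higher and 13 lower at 46h against 22h, against 28.1% and 19.1%. Median-of-ratios scaling, which set that median to 0.00, gave 8 higher and 23 lower at 46h against 0h, against 27.1% and 34.2% of all genes, and 8 higher and 16 lower at 46h against 22h, against 19.2% and 26.3%. Without replicate 4 of 0h, 7 were higher and 24 lower at 46h against 0h, against 18.4% and 38.1% of all genes.

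**Figure D2:**
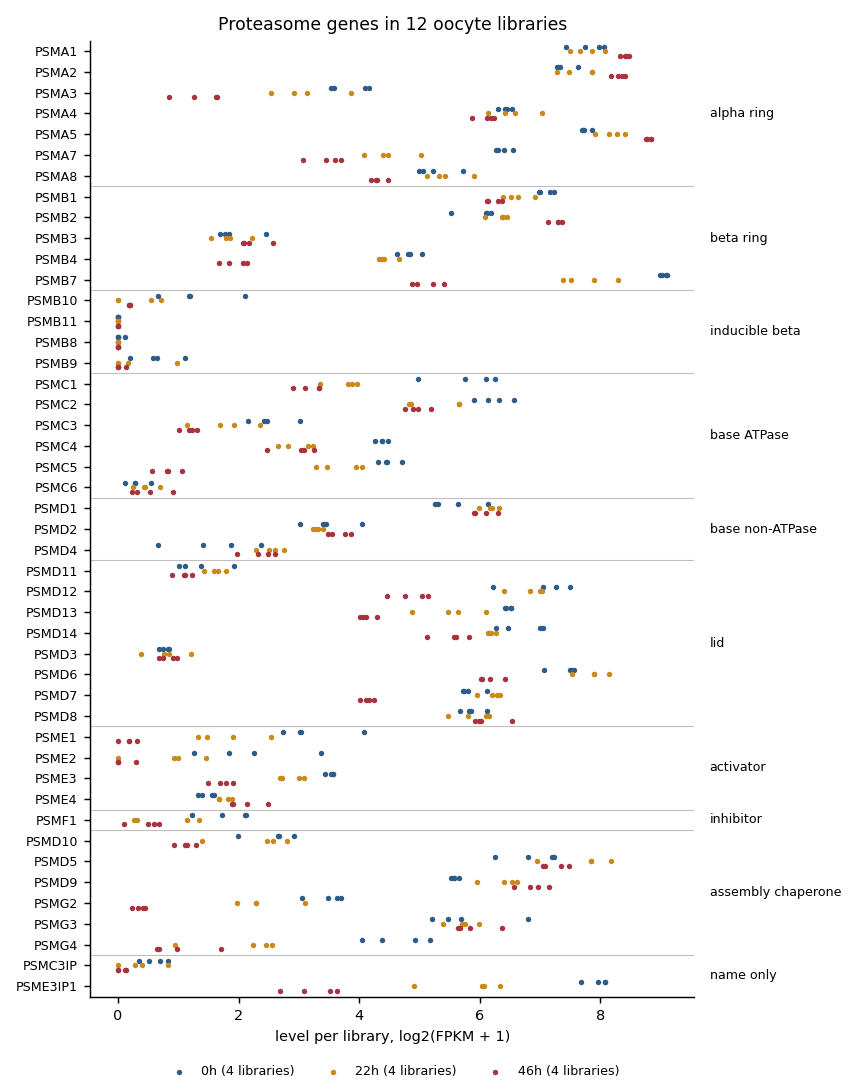
Level of all 46 proteasome genes in each of the 12 libraries, as log2(FPKM + 1), ordered by role, with 1 point for each library coloured by stage. PSMB7 has its 0h points at the right of the plot (509.69 to 549.80 FPKM) and its 46h points far to their left (28.38 to 41.41 FPKM), while the 46h points of PSMA5 and PSMB2 lie to the right of both earlier stages.

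Among the alpha subunits, which form the outer rings of the core and its gate, 3 of the 7 tested were higher and 3 lower at 46h than at 0h, against 16.8% and 39.1% of all genes. PSMA5 had 209.39, 231.60, 211.98 and 206.31 FPKM in replicates 1 to 4 of 0h, 310.56, 338.75, 240.35 and 281.94 at 22h, and 459.06, 434.42, 430.13 and 454.70 at 46h. The 3 stages did not overlap. PSMA5 was the most abundant proteasome transcript at 22h and at 46h, and its log2 difference between 0h and 46h was 1.05 (SE 0.14, adjusted p = 1.79e-05). PSMA2 had 154.29, 156.30, 160.17 and 197.04 FPKM at 0h, 231.56, 231.38, 155.12 and 177.12 at 22h, and 337.53, 289.69, 328.44 and 313.61 at 46h. Each 46h library lay above every earlier one, and the difference from 22h was 0.69 (SE 0.17, adjusted p = 0.00347). PSMA1 had 249.71, 266.29, 213.07 and 170.86 FPKM at 0h, 201.65, 269.99, 179.25 and 232.50 at 22h, and 341.44, 319.08, 337.40 and 354.97 at 46h. Here the earlier stages overlapped and 46h lay above both, by 0.63 from 22h (SE 0.18, adjusted p = 0.00889). Without replicate 3 of 22h, the rises of PSMA1, PSMA2 and PSMA5 from 22h fell under the fold threshold, at 0.53, 0.58 and 0.52. As TPM, the rises of PSMA1 and PSMA5 from 22h were also under that threshold, at 0.54 and 0.52. The rise of PSMA1 over the culture fell under it without replicate 4 of 0h (0.48), without replicate 4 of 46h (0.58) and as TPM (0.50).

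PSMA3 and PSMA7 went the other way. PSMA3 averaged 13.6 ± 3.33 FPKM (mean ± SD, n = 4) before culture, 8.19 ± 3.77 after 22h and 1.60 ± 0.637 after 46h, a log2 difference over the culture of -2.50 (SE 0.27, adjusted p = 1.96e-06). PSMA7 averaged 82.6 ± 7.31, 22.2 ± 6.55 and 10.1 ± 2.0 FPKM at the 3 stages. Its 3 stages did not overlap, and both steps passed, at -1.89 (SE 0.20, adjusted p = 2.6e-05) and -1.04 (SE 0.20, adjusted p = 0.000689). PSMA4 was at 85.1 ± 5.58, 94.9 ± 26.0 and 68.3 ± 7.41 FPKM and passed in no comparison. The alpha ring subunits analysed, which assemble in equal numbers, differed by 16.5 times in level at 0h, between PSMA3 and PSMA1. Between PSMA3 and PSMA5, the extremes of the later stages, the ratio was 35.8 at 22h and 277 at 46h. These ratios are of RNA and not of protein, and carry the limit given above for gene models.

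PSMA8 is the alpha subunit of germ cells, known from the testis, which takes the place of PSMA7 in the ring. It had 30.78, 32.36, 36.49 and 51.52 FPKM at 0h, 42.04, 59.22, 33.74 and 39.29 at 22h, and 18.52, 17.39, 21.24 and 18.75 at 46h. The 0h and 22h libraries overlapped and 46h lay below both, and from 22h PSMA8 fell by 1.13 on the log2 scale (SE 0.20, adjusted p = 0.000326). PSMA8 made up 31.1 ± 3.84% of the summed level of the pair at 0h, 65.8 ± 11.08% at 22h and 65.5 ± 3.37% at 46h. Each library of 22h and 46h held a larger share of PSMA8 (51.8% or more) than each library of 0h (35.8% or less). The pair was singled out after its values were seen, so this share is given without a test. The sequences of the pair are alike, and RSEM, which the study used for FPKM values, divides reads that fit several transcripts by a statistical estimate.

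**Figure D3:**
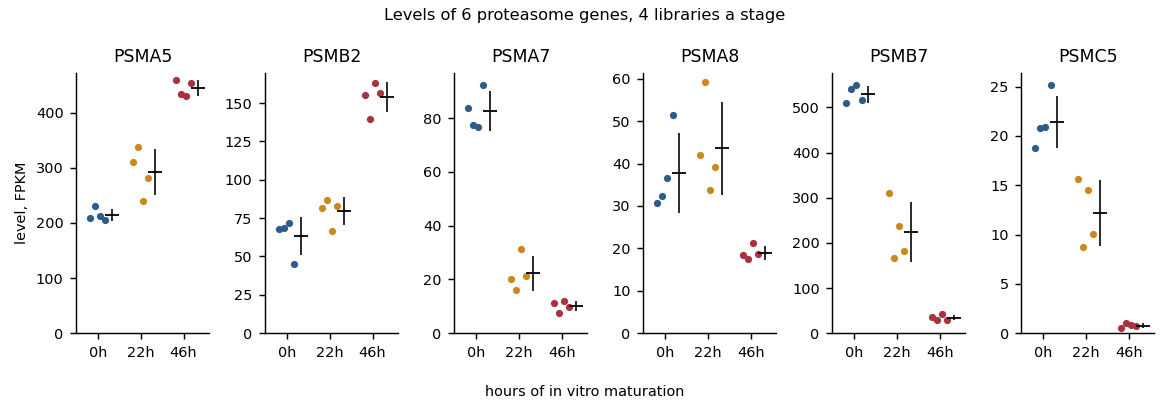
Level in FPKM of 6 proteasome genes in each library by stage, with the mean and SD of the 4 libraries beside the points, each axis starting at 0. PSMA5 and PSMB2 are highest at 46h, PSMA7 drops by 22h while PSMA8 overlaps between 0h and 22h, and PSMB7 and PSMC5 step down at both intervals.

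PSMB7, the beta subunit with trypsin-like activity, was the most abundant proteasome transcript before maturation and had the largest fall on the log2(FPKM + 1) scale among the subunits tested. That scale understates the fall of low genes, and by the ratio of mean FPKM between 0h and 46h PSMC5 went down further. PSMB7 had 509.69, 541.26, 549.80 and 516.84 FPKM in the libraries of 0h, 311.26, 165.55, 237.02 and 182.64 at 22h, and 36.55, 28.38, 41.41 and 30.00 at 46h. No library of a later stage reached any of an earlier one, and PSMB7 moved from first to fourteenth place among the 46 genes. The log2 difference was -1.28 by 22h (SE 0.20, adjusted p = 0.000327), -2.65 from 22h to 46h (SE 0.20, adjusted p = 8.31e-08) and -3.93 over the whole culture (adjusted p = 7.6e-10), a level 15.3 times lower. The other standard catalytic subunits, PSMB5 and PSMB6, were not analysed here.

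PSMB2, a beta subunit without a cutting site, rose. It had 67.69, 68.42, 71.54 and 44.86 FPKM at 0h, 81.81, 87.04, 66.77 and 82.92 at 22h, and 155.59, 139.81, 162.87 and 156.65 at 46h. The earlier stages overlapped, 46h lay above both, and the log2 difference was 0.94 from 22h (SE 0.17, adjusted p = 0.000389) and 1.29 from 0h (SE 0.17, adjusted p = 1.28e-05). PSMB4, another structural subunit, had 27.6 ± 3.37 FPKM before culture, 20.9 ± 2.30 after 22h and 2.85 ± 0.549 after 46h, and its second step was -2.51 (SE 0.16, adjusted p = 1.27e-08). PSMB1 went from 136 ± 11.9 to 97.6 ± 15.9 and 74.3 ± 6.47 FPKM and passed only over the whole culture, at -0.87 (SE 0.15, adjusted p = 0.000199). This call was lost under both median-of-ratios scaling and quantile normalization. PSMB3 was at 2.93 ± 1.03, 2.67 ± 0.741 and 3.73 ± 0.833 FPKM and passed in no comparison.

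Summed over the subunits analysed, the alpha ring without PSMA6 and PSMA8 stood at 788 ± 27.7 FPKM at 0h, 838 ± 119 at 22h and 1180 ± 44.6 at 46h. The beta ring without PSMB5 and PSMB6 stood at 759 ± 36.5, 425 ± 60.2 and 269 ± 20.2 FPKM. The sums of the rings thus began alike and parted, with PSMA1, PSMA2 and PSMA5 carrying the first and PSMB7 the second. These directions held from 0h to 46h under median-of-ratios scaling, where the log2 ratios of the sums were 0.90 and -1.18 in place of 0.58 and -1.499.

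The inducible beta subunits, which replace the standard cutting subunits in immune cells, were at or near 0. PSMB11, the form of the thymus, was at 0 in all 12 libraries, and PSMB8 was at 0 in all but replicate 4 of 0h, with 0.09 FPKM. PSMB9 had 0.15 to 1.15 FPKM at 0h and 0 to 0.10 at 46h, with 0.97 in replicate 4 of 22h. PSMB10, the inducible form of PSMB7, had 0.59 to 3.3 FPKM at 0h and 0.13 to 0.15 at 46h, which is about 1 fragment of a 1 kb transcript. PSMB9 and PSMB10 did not overlap between 0h and 46h, at an exact two-sided permutation p of 0.0286, the smallest that 4 against 4 libraries allow. This p is not adjusted for the other genes and comparisons tested in this way. PSMC3IP, which shares only the prefix, had the same p. The share of all genes under the filter without overlap was not counted. PSMB10 made up at most 0.634% of the summed level of PSMB7 and PSMB10 in any library.

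**Figure D4:**
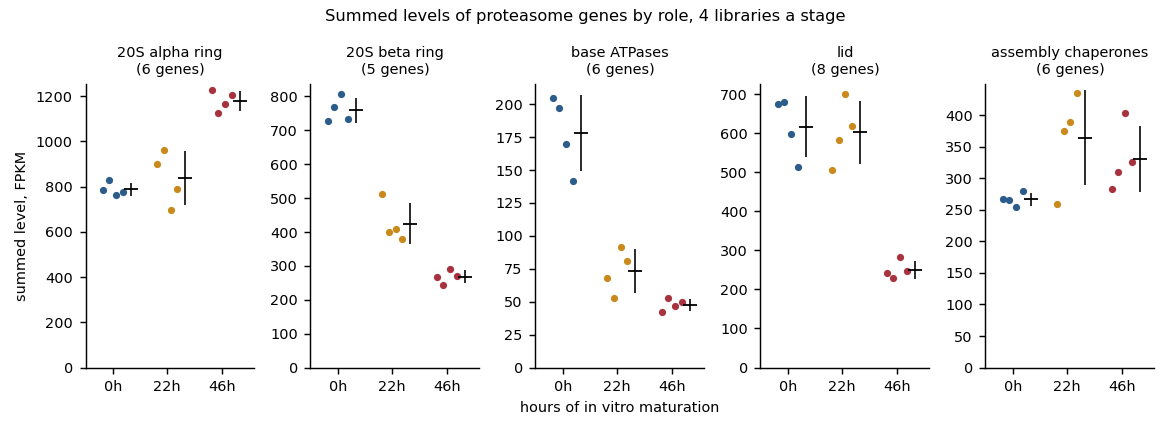
Summed level in FPKM by role in each library, with the mean and SD of the 4 libraries beside the points, each axis starting at 0. The alpha ring sum is highest at 46h (1180 FPKM), the beta ring and the base ATPases are lower at each later stage, and the mean sum of the lid is 250 FPKM at 46h, against 602 FPKM for the 22h libraries.

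The ATPases of the base, the ring that unfolds substrates and threads them into the core, went down at the first step. All 5 tested (PSMC1 to PSMC5) were lower at 22h than at 0h, and all 5 were lower at 46h than at 0h, with a median log2 difference of -0.98 by 22h and -1.42 over the culture. The shares of all genes lower in these comparisons were 18.9% and 39.1%. PSMC1 had 67.63, 75.00, 53.02 and 30.39 FPKM at 0h, 13.69, 9.23, 14.68 and 13.11 at 22h, and 9.05, 7.61, 6.49 and 9.12 at 46h. Its lowest 0h library, the replicate 4 that stood apart, was still above every later library, and by 22h PSMC1 fell by 2.01 on the log2 scale (SE 0.25, adjusted p = 6.4e-05). PSMC2 went from 75.3 ± 14.9 to 38.6 ± 12.6 and 30.3 ± 3.83 FPKM, and PSMC4 from 19.8 ± 1.30 to 6.91 ± 1.48 and 6.94 ± 1.68. Neither passed between 22h and 46h, where the differences were -0.29 (adjusted p = 0.302) and -0.00 (adjusted p = 0.992). PSMC3, the lowest of the 5, went from 4.87 ± 1.56 to 2.59 ± 1.21 and 1.27 ± 0.192 FPKM. Its call by 22h was lost without replicate 2 of 22h (-0.53, adjusted p = 0.0966), without replicate 3 or 4 of 0h and without replicate 4 of 22h. It was also lost with no filter on low values (adjusted p = 0.0755), in a fit of only the groups compared (adjusted p = 0.0725) and under quantile normalization (-0.56, under the fold threshold), and without it 4 of the 5 ATPases passed by 22h.

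PSMC5 was the ATPase that passed at both steps. It had 18.76, 20.80, 20.93 and 25.12 FPKM at 0h, 15.61, 8.70, 14.48 and 10.01 at 22h, and 0.48, 1.08, 0.78 and 0.76 at 46h. The stages did not overlap, and the second step was -2.87 (SE 0.19, adjusted p = 2.58e-08), the largest between 22h and 46h among the proteasome genes on the log2(FPKM + 1) scale, although by the ratio of mean FPKM those of PSME1, PSME2 and PSMG2 were larger. The sixth ATPase, PSMC6, was under the filter at 0.248 ± 0.154, 0.385 ± 0.182 and 0.433 ± 0.320 FPKM, a value of a few fragments. Its exact permutation p between 0h and 46h was 0.371. Summed, the ATPases went from 178 ± 28.7 to 73.3 ± 17.0 and 47.8 ± 4.65 FPKM.

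The base also holds subunits that are not ATPases. PSMD1, a scaffold of the base, stood at 48.5 ± 14.7, 71.3 ± 6.81 and 66.0 ± 8.68 FPKM, and PSMD2, its partner scaffold, at 10.6 ± 3.57, 8.95 ± 0.504 and 11.7 ± 1.62. PSMD2 passed in no comparison. PSMD1 passed at 22h against 0h just inside the fold threshold, at 0.59 (SE 0.19, adjusted p = 0.0329), and the call was lost without any one of 6 of the 8 libraries of those stages. PSMD4, a receptor for ubiquitin chains, had 0.59, 1.67, 2.67 and 4.20 FPKM at 0h, 4.66, 5.76, 5.07 and 3.91 at 22h, and 2.95, 3.98, 5.10 and 4.64 at 46h. The 0h libraries spread widely and overlapped both later stages. PSMD4 passed at 22h (0.95, SE 0.29, adjusted p = 0.0217) and over the culture (0.77, SE 0.29, adjusted p = 0.0316). Without replicate 1 of 0h these became 0.65 (adjusted p = 0.0559) and 0.46 (adjusted p = 0.107), so neither passed.

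**Figure D5:**
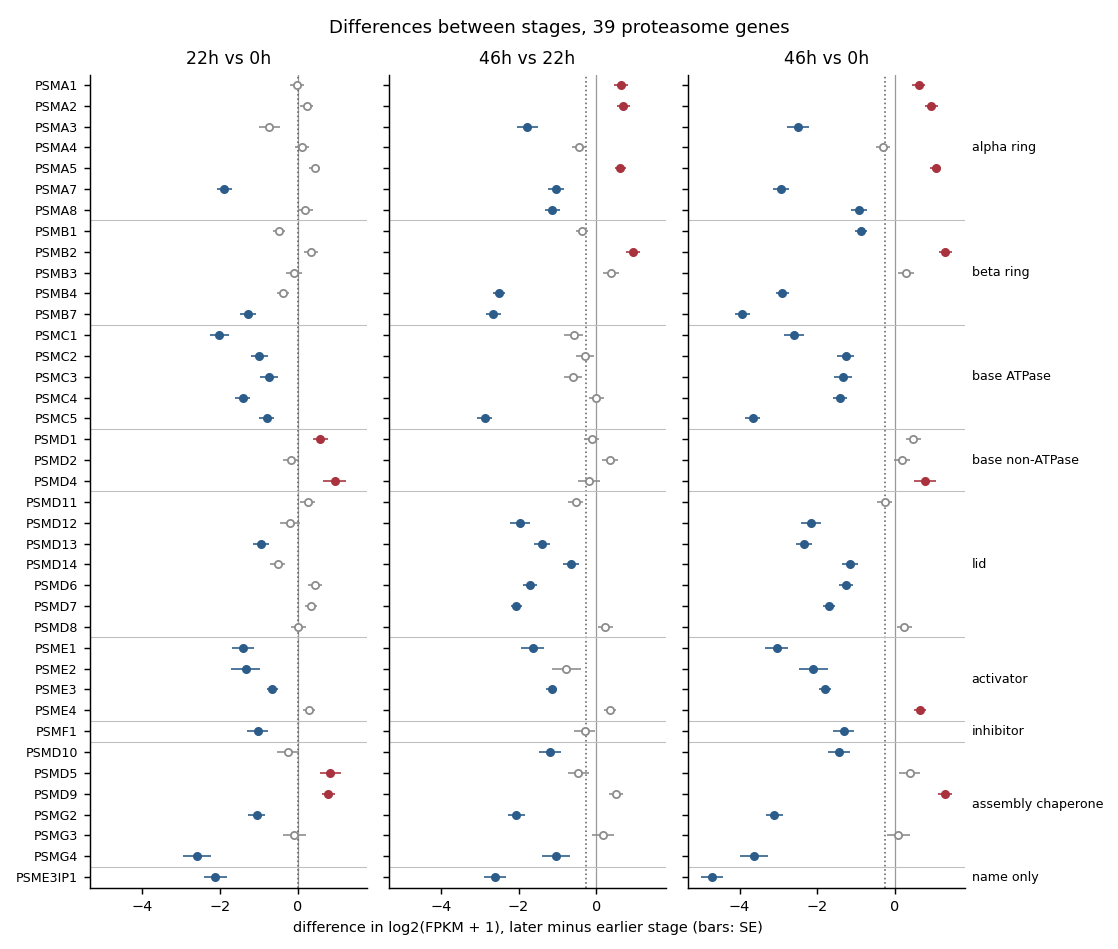
Difference in log2(FPKM + 1) with its SE for the 39 proteasome genes tested, in 3 panels by comparison and ordered by role, with filled points for genes that passed (red higher, blue lower) and a dotted line at the median of all genes tested. The 5 base ATPases are filled and below 0 at 22h against 0h, and 5 of the 7 lid genes are filled and below 0 at 46h against 22h.

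The lid removes ubiquitin chains from the substrate. Of 7 lid genes tested, 1 was lower at 22h than at 0h, near the 18.9% of all genes, and 5 were lower at 46h than at 22h, against 32.6%. The median log2 differences of the lid genes were 0.01 and -1.40, and those of all genes -0.00 and -0.26. PSMD6 went from 171 ± 26.3 to 235 ± 41.0 and 71.1 ± 9.56 FPKM, and PSMD7 from 56.9 ± 7.83 to 72.6 ± 8.24 and 16.6 ± 1.20. For both, every 46h library lay below every earlier one, and the second steps were -1.70 (SE 0.18, adjusted p = 2.48e-06) and -2.06 (SE 0.15, adjusted p = 6.51e-08). PSMD12 went from 134 ± 45.0 to 113 ± 20.7 and 28.3 ± 5.99 FPKM. PSMD13 was the lid gene lower at both steps, from 87.7 ± 3.42 to 47.2 ± 16.4 and 16.5 ± 1.5 FPKM. PSMD14, the enzyme that cuts ubiquitin chains off the substrate, went from 106 ± 27.8 to 71.8 ± 2.95 and 46.0 ± 8.96 FPKM. It was lower by 0.65 at the second step (SE 0.20, adjusted p = 0.015), a call lost under median-of-ratios scaling (-0.34, adjusted p = 0.239), under quantile normalization and without replicate 2 of 46h.

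Lid members did not all move. PSMD8 was at 57.9 ± 7.77, 59.0 ± 12.3 and 69.4 ± 14.9 FPKM and PSMD11 at 1.64 ± 0.811, 2.09 ± 0.331 and 1.13 ± 0.198, and neither passed in a comparison. PSMD3 was under the filter at 0.708 ± 0.0888, 0.783 ± 0.416 and 0.783 ± 0.170 FPKM, with an exact permutation p of 0.457 between 0h and 46h. The summed level of the lid was 616 ± 78.1, 602 ± 81.3 and 250 ± 23.1 FPKM.

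Of the 4 activators that can cap the core in place of the ATPase particle, PSME1 and PSME3 were lower over the culture. PSME4 was higher. Among all genes 39.1% were lower and 16.8% higher. PSME2 is left out of this count, because it reached the filter through its 0h libraries alone. PSME1 and PSME2, the pair of the interferon-induced activator, went from 8.98 ± 4.73 and 4.27 ± 3.47 FPKM at 0h to 2.72 ± 1.51 and 0.910 ± 0.717 at 22h. Their means after 46h were 0.130 ± 0.102 and 0.0575 ± 0.115. At 46h both were worth a few fragments or 0. Their highest 0h values, 15.99 and 9.27 FPKM, were both in replicate 4. Over the culture PSME1 fell by 3.05 on the log2 scale (SE 0.29, adjusted p = 5.29e-07). PSME3, the nuclear activator, fell at both steps, from 10.5 ± 0.510 to 6.37 ± 1.0203 and 2.32 ± 0.387 FPKM, without overlap between stages. Under quantile normalization its first step was -0.49, under the fold threshold. PSME4, the activator known for its part in spermatogenesis and histone turnover, was at 1.77 ± 0.242, 2.40 ± 0.251 and 3.38 ± 0.868 FPKM. It passed over the culture at 0.64 (SE 0.16, adjusted p = 0.0026) but not without replicate 1 of 46h, where it was 0.52. PSMF1, an inhibitor of the core, went from 2.58 ± 0.959 to 0.795 ± 0.679 and 0.40 ± 0.233 FPKM.

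The factors that assemble the proteasome divided. PSMD9, a chaperone of the base, had 46.81, 46.54, 49.51 and 45.10 FPKM at 0h, 60.66, 83.66, 97.19 and 91.88 at 22h, and 93.69, 123.57, 140.75 and 113.17 at 46h. Every later library lay above every 0h library, by 0.79 at 22h (SE 0.18, adjusted p = 0.00404) and 1.29 at 46h (SE 0.18, adjusted p = 1.79e-05). PSMD5, another chaperone of the base, had 148.47, 145.83, 109.84 and 75.24 FPKM at 0h, 123.07, 229.04, 228.17 and 289.03 at 22h, and 131.28, 134.28, 177.78 and 161.87 at 46h. Replicate 1 of 22h overlapped 0h, and the rise by 22h was 0.84 (SE 0.27, adjusted p = 0.0276). That call was lost without replicate 3 or 4 of 0h and without replicate 2, 3 or 4 of 22h, at adjusted p of 0.059 to 0.0905. PSMD10, the third chaperone of the base, went from 5.05 ± 1.5 to 4.28 ± 1.86 and 1.18 ± 0.222 FPKM and was lower by 1.19 after 22h (SE 0.27, adjusted p = 0.00253). Quantile normalization ended this call of PSMD10.

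PSMG genes encode chaperones that help the alpha ring to form. PSMG4 had 15.47, 19.85, 29.30 and 35.25 FPKM at 0h, 3.73, 0.93, 4.89 and 4.47 at 22h, and 0.61, 0.98, 2.26 and 0.56 at 46h. It fell by 2.58 on the log2 scale by 22h (SE 0.36, adjusted p = 0.000142), the largest early fall of the 39 genes. The later stages overlapped, and the second fall (-1.05, SE 0.36, adjusted p = 0.0262) was lost with most single libraries of those stages left out, at adjusted p of 0.0545 to 0.0799. PSMG2 went from 10.2 ± 2.10 to 4.59 ± 2.07 and 0.288 ± 0.0854 FPKM and was lower at both steps. PSMG3 was at 60.1 ± 33.8, 51.8 ± 8.78 and 59.1 ± 15.1 FPKM and passed in no comparison. Its 0h libraries ran from 36.10 to 50.78 FPKM apart from replicate 4, at 110.02. The chaperones summed to 267 ± 10.5 FPKM at 0h, 365 ± 75.0 at 22h and 331 ± 51.8 at 46h, mostly PSMD5, PSMD9 and PSMG3.

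The genes that share only the prefix were followed by the same rule. PSME3IP1, which encodes a protein that binds PSME3, had 247.89, 269.43, 270.23 and 204.98 FPKM at 0h, 65.96, 29.01, 79.90 and 64.99 at 22h, and 10.45, 11.42, 5.44 and 7.49 at 46h. No stages overlapped, and over the culture its level fell by 4.72 on the log2 scale (SE 0.29, adjusted p = 4.49e-09), the largest of the 39 on the log2(FPKM + 1) scale, although by the ratio of mean FPKM those of PSME1, PSME2 and PSMG2 were larger. PSME3IP1 fell by 2.11 in the first interval (SE 0.29, adjusted p = 0.000119) and fell by 2.61 in the second (SE 0.29, adjusted p = 3.99e-06). PSMC3IP, a recombination factor, was under the filter, at 0.28 to 0.77 FPKM at 0h and 0 to 0.10 at 46h. Its exact permutation p between these stages, not adjusted, was 0.0286. Without these genes the counts were 4 higher and 14 lower at 22h, 4 and 16 from 22h to 46h, and 7 and 23 over the culture.

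Followed over both intervals, 9 genes were lower in all 3 comparisons, against 11.6% of all genes tested: PSMA7, PSMB7, PSMC5, PSMD13, PSME1, PSME3, PSME3IP1, PSMG2 and PSMG4. Under quantile normalization PSMA7, PSME3 and PSMG4 each lost 1 of these calls. PSMC1, PSMC2, PSMC3 and PSMC4, and with the limit given above PSME2 and PSMF1, passed as lower by 22h and not from 22h to 46h, although the second step of PSMC1 was -0.59 with every 46h library below those of 22h (adjusted p = 0.0668) and that of PSMC3 was -0.60 (adjusted p = 0.0517). PSMA3, PSMA8, PSMB4, PSMD6, PSMD7, PSMD10, PSMD12 and PSMD14 passed as lower from 22h to 46h and not by 22h, although PSMA3 stood at -0.73 by then (adjusted p = 0.0569) and every 22h library of PSMD14 lay below those of 0h, at -0.51 (adjusted p = 0.0656). PSMA1, PSMA2, PSMA5 and PSMB2 passed as higher from 22h to 46h and not by 22h, although PSMA5 was already above 0h in every 22h library, by 0.44 (adjusted p = 0.0319), under the fold threshold. Whether the 2 steps of a gene differed in size was not tested. In all, 33 of the 39 passed in at least 1 comparison, against 63.7% of all genes, and 6 in none: PSMA4, PSMB3, PSMD2, PSMD8, PSMD11 and PSMG3. The 33 include PSME2 and PSMF1, whose only calls were against 0h and carry the limit given above. The sum over all 46 genes was 2987 ± 116 FPKM at 0h, 2505 ± 46.1 at 22h and 2193 ± 89.9 at 46h. Without PSMB7 and PSME3IP1, chosen after their values were seen, it was 2209 ± 85.2, 2221 ± 123 and 2150 ± 87.6 FPKM.

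Genes that work with the proteasome were counted from a list of 32, of which 29 had an identifier and 23 were tested. From 0h to 22h, 2 were higher and 2 lower, against 7.84% and 18.9% of all genes. From 22h to 46h, 3 were higher and 7 lower, against 9.87% and 32.6%. Over the culture 7 were higher and 7 lower, against 16.8% and 39.1%. The median log2 difference of the 23 was 0.08, where that of all genes was -0.25. ADRM1 and PAAF1 reached the filter only through their higher 0h libraries, so their differences from 0h are given without a test. Both are among the 7 lower over the culture, and PAAF1 is among the 2 lower at 22h. The lower ones over the culture included POMP, the maturation factor of the core, at 4.30 ± 1.49 FPKM at 0h and 0.145 ± 0.0705 at 46h, and ADRM1, a ubiquitin receptor of the base, at 1.63 ± 0.625 and 0.198 ± 0.201. The higher ones included NFE2L2, a transcription factor that acts on proteasome genes, at 54.9 ± 16.5 and 105 ± 17.5 FPKM, and NGLY1, which activates the related factor NFE2L1, at 237 ± 75.6 and 689 ± 84.3. The log2 differences were -2.17 for POMP (SE 0.19, adjusted p = 2.12e-07), 0.96 for NFE2L2 (SE 0.25, adjusted p = 0.00371) and 1.59 for NGLY1 (SE 0.26, adjusted p = 9.06e-05). That of ADRM1 was -1.12, given without a test. UBB, a source of ubiquitin itself, was at 25072 ± 5851 FPKM at 0h and 23723 ± 2176 at 46h, a difference of -0.05 (SE 0.18, adjusted p = 0.812).

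Promoters were read from the RefSeq genome Sscrofa11.1 as the 250 bases before to 50 bases after the annotated start, for the 45 proteasome genes that matched. They were searched on both strands for TGACNNNGC, the core of the antioxidant response element bound by NFE2L1 and NFE2L2, and for CCAAT, the box bound by NF-Y. TGACNNNGC stood in 4 of the 45 (8.89%) and in 12.2% of 20641 RefSeq promoters. By direction at 46h against 0h, TGACNNNGC was in 1 of the 7 higher proteasome genes (14.3%) and 3 of the 23 lower (13%). Among all genes it was in 15% of the higher and 13.2% of the lower. CCAAT stood in 18 of the 45 (40.0%) and in 35.7% of all promoters. It was in 6 of the 7 proteasome genes higher at 46h than at 0h and in 6 of the 23 lower ones, while among all genes it was in 37.6% of the higher and 39.5% of the lower. No test was made of these splits, and a match is a run of letters and not a bound site. The promoters of 4 genes that rose (PSMA1, PSMA5, PSMB2 and PSMD9) and of the 2 proteasome subunits with the largest fall on the log2(FPKM + 1) scale (PSMB7 and PSMC5) are shown so that the matches can be seen. Each is printed 5' to 3' on the strand of the gene, with CCAAT or its reverse complement ATTGG in capitals in the first 4, and TGACNNNGC or its reverse complement in capitals in PSMB7 and PSMC5.
PSMA1 (chr2:44739852-44740151, plus strand): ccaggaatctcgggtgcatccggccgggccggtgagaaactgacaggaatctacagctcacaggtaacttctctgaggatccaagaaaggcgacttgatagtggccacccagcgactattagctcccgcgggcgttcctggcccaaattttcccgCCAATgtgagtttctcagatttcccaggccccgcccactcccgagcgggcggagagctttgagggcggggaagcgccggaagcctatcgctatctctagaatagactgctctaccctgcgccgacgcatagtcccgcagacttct
PSMA5 (chr4:110695179-110695478, plus strand): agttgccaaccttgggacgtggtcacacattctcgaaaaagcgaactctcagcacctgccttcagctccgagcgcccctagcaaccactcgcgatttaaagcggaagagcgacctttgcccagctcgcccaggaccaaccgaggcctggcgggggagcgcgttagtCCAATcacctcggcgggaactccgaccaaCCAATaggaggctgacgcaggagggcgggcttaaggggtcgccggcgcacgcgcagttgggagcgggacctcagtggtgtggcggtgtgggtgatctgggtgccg
PSMB2 (chr6:91829893-91830192, minus strand): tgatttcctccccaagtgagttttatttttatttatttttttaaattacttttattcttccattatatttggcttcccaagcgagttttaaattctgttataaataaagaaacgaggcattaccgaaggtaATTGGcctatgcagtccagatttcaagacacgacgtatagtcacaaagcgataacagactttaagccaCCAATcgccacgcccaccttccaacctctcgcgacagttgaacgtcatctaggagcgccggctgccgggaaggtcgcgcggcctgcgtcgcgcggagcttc
PSMD9 (chr14:30822086-30822385, minus strand): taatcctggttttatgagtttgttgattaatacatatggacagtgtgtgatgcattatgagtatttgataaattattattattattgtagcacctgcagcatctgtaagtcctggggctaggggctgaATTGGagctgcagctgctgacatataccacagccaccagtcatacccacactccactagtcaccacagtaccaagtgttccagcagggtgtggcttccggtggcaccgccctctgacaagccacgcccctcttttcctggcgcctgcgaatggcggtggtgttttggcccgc
PSMB7 (chr1:265235340-265235639, minus strand): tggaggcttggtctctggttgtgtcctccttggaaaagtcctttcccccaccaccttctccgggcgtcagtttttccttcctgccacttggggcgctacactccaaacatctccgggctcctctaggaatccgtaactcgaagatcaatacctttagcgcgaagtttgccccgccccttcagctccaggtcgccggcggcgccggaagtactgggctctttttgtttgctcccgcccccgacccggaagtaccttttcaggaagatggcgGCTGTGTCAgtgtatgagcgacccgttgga
PSMC5 (chr12:15106277-15106576, minus strand): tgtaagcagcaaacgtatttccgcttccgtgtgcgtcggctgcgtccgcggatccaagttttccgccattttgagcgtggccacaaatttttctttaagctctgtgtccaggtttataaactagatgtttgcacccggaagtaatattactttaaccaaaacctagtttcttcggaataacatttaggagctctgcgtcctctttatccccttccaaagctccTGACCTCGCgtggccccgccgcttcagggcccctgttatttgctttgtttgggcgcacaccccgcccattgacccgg

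In these windows PSMA1 had 1 match of CCAAT and PSMA5 had 2, all on the strand of the gene, PSMB2 had 1 on each strand, and PSMD9 had 1 on the opposite strand. Their levels at 46h, given above, were all above those at 0h. CCAAT also stood in genes lower at 46h: PSMB1, PSMC3, PSMC4, PSMD10, PSMD13 and PSMD14, whose promoters are not printed. PSMB7 and PSMC5 had no CCAAT and 1 match each of TGACNNNGC. PSME4, which was higher at 46h, had the same, and PSMD14, which was lower, had 1 match of TGACNNNGC and also 1 of CCAAT on each strand.

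The 45 matched genes were spread over the genome, with 8 on chromosome 7, among them PSME1 and PSME2, and 7 each on chromosomes 6 and 12. PSMB7 lies at chr1:265172257-265235389 on the minus strand and PSMA5 at chr4:110695429-110717308 on the plus strand of Sscrofa11.1. The direction of change was also set beside features of the transcripts. The RefSeq transcripts of the 7 higher genes had a median length of 1152 bases and a median GC content of 48.4%, and those of the 23 lower genes 1546 bases and 50.6%. Across the 38 tested genes with a matched transcript, the log2 difference between 46h and 0h had a Spearman rho of -0.21 with GC content and 0.15 with length, and across 5704 genes of the whole test -0.28 and 0.19. These genes share the same libraries, and the values are a description. A cytoplasmic polyadenylation element, sought as TTTTAT or TTTTAAT in the last 100 bases of the transcript and chosen after the levels were seen, stood in 28.6% of all higher and 15.2% of all lower genes at 46h. Among the proteasome genes it stood in 1 of the 7 higher and 2 of the 23 lower.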

How the data were processed

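As deposited by the authors, each of the 12 files holds 1 FPKM value per Ensembl gene identifier, and per the labels FastQC, Trim Galore, STAR, HTSeq and RSEM were used. The study's methods name the build Sscrofa11. The members and lists were chosen with earlier results of these data known. All proteasome genes are accounted for, and values in every library are given for PSMB7 and for the 3 largest rises and 3 largest falls past the thresholds in each comparison, with others added after their values were seen. Of 31908 identifiers, 15029 were named from the reference gene name table and 2, PSMG2 and PSMG4, from the study's supplementary gene list.

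The fit of log2(FPKM + 1) used lmFit and eBayes (with trend) of limma 3.58.1 under R 4.3.3, with stage as its single factor over 12 libraries, with Benjamini-Hochberg adjustment over 7013 genes. The tests were two-sided, and the fit was tested on simulated data. A difference on this scale understates the change of genes near 0. Genes with a mean under 1 FPKM were compared by exact permutation of 4 against 4 libraries (70 arrangements). The study's own tool needs counts, which the files do not hold, so limma took its place at the thresholds of the study. FPKM were also rescaled to TPM, by median-of-ratios and by quantiles, and each library was left out in turn.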

Additional observations from a re-analysis of the deposited data

Results flagged for a closer look

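Of the 117 combinations of a tested gene and a stage, 8 had a library set far from the other 3, where chance would give about 5.85 (1 in 20). Replicate 4 of 0h accounted for 4 of them: PSMA2 at 197.04 FPKM and PSME1 at 15.99 FPKM lay above the other 0h libraries, and PSMB2 at 44.86 FPKM and PSMD6 at 132.17 FPKM lay below. PSMB3 lay high at 4.46 FPKM in replicate 3 of 0h and at 4.96 FPKM in replicate 1 of 46h. PSMD8 lay high at 91.55 FPKM in replicate 3 of 46h. PSME2 at 0.23 FPKM in replicate 2 of 46h was the only library of that stage above 0.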

How the results depend on the processing

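Of the 71 calls of single genes, 52 (13 of 19 at 22h against 0h, 14 of 21 at 46h against 22h, 25 of 31 at 46h against 0h) were kept under every alternative scaling, filter, fit and left-out library in which the gene was tested. The count of higher genes at 22h against 0h, 4, was 1 without a filter on low values, 1 in a fit of only the groups compared, 2 with the replicate block, 0 at a fold change over 2, and 1 to 4 with a library left out (1 without replicate 2 of 22h). At 46h against 22h the 4 higher genes became 8 under median-of-ratios scaling and 8 under quantile normalization, 2 as TPM, 0 at a fold change over 2, and 1 to 5 with a library left out (1 without replicate 3 of 22h). At 46h against 0h the 7 higher genes became 12 under quantile normalization, 3 at a fold change over 2, and 5 to 7 with a library left out. The counts of lower genes with a library left out were 14 to 15, 15 to 20, and 24 throughout. The median log2 difference of the proteasome genes at 46h against 22h, -0.59, became -0.34 under median-of-ratios scaling and -0.14 under quantile normalization, and that at 46h against 0h, -1.27, became -1.10 without a filter, -0.95 under median-of-ratios scaling and -0.70 under quantile normalization; the cause was not tested. With a library left out the medians were -0.43 to -0.18, -0.66 to -0.51 and -1.37 to -1.20.

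The single genes whose difference changed sign had no call in that comparison. At 22h against 0h, PSMA1 became 0.0768 under quantile normalization and 0.0593 as TPM without mitochondrially encoded genes, PSMB3 0.0885 under quantile normalization, and PSMD8 -0.0029 as TPM. At 46h against 22h, median-of-ratios scaling and quantile normalization gave 0.0228 and 0.16 for PSMC2, 0.28 and 0.50 for PSMC4, 0.20 and 0.19 for PSMD1, and 0.0747 and 0.33 for PSMD4, and quantile normalization gave 0.24 for PSMF1. At 46h against 0h, these scalings gave 0.006 and 0.12 for PSMA4, quantile normalization gave 0.43 for PSMD11, and TPM gave -0.0157 for PSMG3. The log2 ratio of the summed lid at 22h against 0h became 0.0464 as TPM without mitochondrially encoded genes, and that of the summed chaperones at 46h against 22h became 0.17 under median-of-ratios scaling. With a library left out, the ranges that crossed 0 at 22h against 0h were -0.15 to 0.0709 for PSMA1, -0.0467 to 0.25 for PSMA4, -0.21 to 0.0846 for PSMB3, -0.43 to 0.0596 for PSMD10, -0.33 to 0.0171 for PSMD2, -0.0764 to 0.15 for PSMD8, -0.28 to 0.25 for PSMG3, -0.10 to 0.17 for PSMD3 and -0.12 to 0.0414 for the summed lid. At 46h against 22h they were -0.11 to 0.16 for PSMC4, -0.23 to 0.0102 for PSMB10, -0.11 to 0.12 for PSMC6 and -0.11 to 0.16 for PSMD3, and at 46h against 0h -0.11 to 0.42 for PSMG3.

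The replicate numbers are only numbers: of 12 same-numbered pairs of libraries 3 had a correlation of deviations over 0.1, and 2 of the 12 libraries correlated best with their own number. With the number as a replicate block, PSMD1 and PSMD5 lost their calls at 22h and PSMC3 gained one at 46h against 22h. Quantile normalization ended the calls of PSMC3 and PSME3 at 22h against 0h, of PSMA7, PSMD10, PSMD14 and PSMG4 at 46h against 22h, and of PSMA8, PSMB1 and PSMF1 at 46h against 0h. The summed levels by role, the counts without PSMC3IP and PSME3IP1 and those without PSME2 and PSMF1 were alternatives chosen after seeing the data. Depth limits the genes under about 1 FPKM, where a value is a few fragments.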
